A study of Mus musculus with 8 samples.

Results

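Calreticulin and its relatives are chaperones of the endoplasmic reticulum, the compartment in which secreted and membrane proteins fold. The 9 genes described here were taken by symbol from the 23930 RefSeq targets of the series. They are the calreticulin paralogues *Calr3* and *Calr*, their membrane-bound relative *Canx*, and the stress chaperones and cofactors *Hspa5*, *Hsp90b1*, *Pdia4*, *Sdf2l1*, *Dnajb9* and *Herpud1*. *Calr3* was chosen by its log2 fold change in this comparison, already known to be high, and the other 8 were set beside it by family and function. The values of this contrast therefore describe the 9 genes, and no p-value is given for any of them. All 9 passed the filter on low counts.

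The data were read counts from liver sinusoidal endothelial cells, the fenestrated lining of the hepatic capillaries. The cells came from wild type female Balb/c mice and were gated as STAB2-high, CD146-high and CD45-dim. Of the mice, 4 had received 150 µg of iron citrate into a vein 5 h earlier and 4 had received 0.05 M citrate buffer alone, so both groups were given citrate, with 1 library per mouse. The series asks how iron raises the mRNA of the ligand BMP6 in these cells. Each gene is read through an amplicon, so values are given as CPM, which are read counts relative to the library total after TMM scaling (counts per M reads), and a difference in level between 2 genes also carries the unknown difference in efficiency between their amplicons. In bulk libraries, fewer cells of a type and less RNA per cell cannot be told apart.

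Counts on targets ran from 7969520 to 11314659 per library. Among the genes of the sort markers, *Stab2* lay between 879.3 and 1222 CPM. *Mcam*, which encodes CD146, stood at 252.7 ± 34.8 CPM with buffer and 179.2 ± 11.3 CPM with iron. Its log2 fold change was -0.495 (edgeR adjusted p = 0.239) and its groups lay apart, as in 2.29% of all tested genes in this direction. DESeq2 called *Mcam*, against 2.5% of all tested genes. Among 15 sinusoidal markers, *Mcam* included, limma-voom called 1, against 1.98% of all tested genes. Without citrate buffer replicate 1 edgeR also called 1 of the 15, and 259 genes over all targets. *Ptprc*, which encodes CD45, lay between 134.9 and 381.8 CPM, highest in citrate buffer replicate 1. The sinusoidal lectin *Clec4g*, not a sort marker, lay between 6867 and 11680 CPM. Citrate buffer replicate 1 stood apart. Its summed level over the 15 sinusoidal markers was 19108.3 CPM. The other buffer libraries lay between 30322.8 and 37725.9 CPM, and the iron citrate libraries between 30572.4 and 33522 CPM. Over 9 markers of T cells, NK cells and neutrophils its sum was 2524.3 CPM. There the other buffer libraries lay between 817.6 and 1166.5 CPM, and the iron citrate libraries between 883.3 and 1178.6 CPM. Receptors of smell and bitter taste and proteins of hair are foreign to liver. They took 2.42% of the counts of citrate buffer replicate 1, against 0.98% in citrate buffer replicate 2 and 0.29% to 0.61% in the other 6 libraries. Where leaving it out turned the sign of the log2 fold change of one of the 9 genes or moved it by over 1.5 times, the value without it is given too.

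As background, newly made glycoproteins are held by the lectin chaperones calreticulin, which is soluble, and calnexin, which spans the membrane, until their sugar and fold pass inspection. BiP, encoded by *Hspa5*, and GRP94, encoded by *Hsp90b1*, hold unfolded stretches of other clients. When unfolded proteins build up, the sensors IRE1, PERK and ATF6 start the unfolded protein response, and ATF6 and XBP1 raise chaperone genes through a promoter motif called the ER stress response element (ERSE). CALR3, also called calsperin, is known as a testis chaperone that sperm need for the maturation of the surface protein ADAM3.

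The promoters of the 9 genes are shown first because the ERSE is a motif that several of the chaperones carry and *Calr3* does not. Windows of 300 bases, from 250 before to 50 after each annotated start, were taken from the RefSeq promoter table (GRCm38.p6), in which all 9 symbols matched and *Calr3* had 2 starts. The *Calr3* window lies at chr8:72443729-72444028 on the minus strand, at the upstream start, from which the transcript named by its target begins. The *Hspa5* window lies at chr2:34771840-34772139 on the plus strand. Capitals mark the only CCAAT box in the former and the ERSE in the latter.

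Calr3: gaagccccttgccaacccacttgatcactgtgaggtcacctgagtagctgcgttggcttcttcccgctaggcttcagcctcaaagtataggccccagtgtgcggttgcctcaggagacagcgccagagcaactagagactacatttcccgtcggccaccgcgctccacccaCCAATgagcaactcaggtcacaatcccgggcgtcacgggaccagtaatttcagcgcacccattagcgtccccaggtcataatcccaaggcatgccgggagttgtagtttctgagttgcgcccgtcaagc

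Hspa5: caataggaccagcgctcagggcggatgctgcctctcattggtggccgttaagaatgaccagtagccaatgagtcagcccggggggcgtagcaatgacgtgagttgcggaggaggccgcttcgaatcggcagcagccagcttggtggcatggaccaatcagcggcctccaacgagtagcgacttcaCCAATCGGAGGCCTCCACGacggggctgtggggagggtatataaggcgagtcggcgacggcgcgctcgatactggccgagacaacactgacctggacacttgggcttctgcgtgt

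The ERSE was searched as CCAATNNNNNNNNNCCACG on both strands, with exact matches only, and 0.119% of 32851 RefSeq promoter windows hold it. The windows of *Calr*, *Canx*, *Hspa5* and *Hsp90b1* hold it, *Hsp90b1* at 2 places. The window of *Herpud1* holds the related ERSE-II, ATTGGNCCACG, which is in 0.0365% of all windows. Each match is printed below as read on the gene's strand in capitals, to show how the spacer between the 2 half-sites varies.

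Calr, chr8:84846882-84847181, minus strand, match on the opposite strand: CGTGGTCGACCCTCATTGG

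Canx, chr11:50325624-50325923, minus strand: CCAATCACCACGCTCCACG

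Hsp90b1, chr10:86705395-86705694, minus strand: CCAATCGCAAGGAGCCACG

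Hsp90b1, the second match, on the opposite strand: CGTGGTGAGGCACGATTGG

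Herpud1, chr8:94386179-94386478, plus strand: ATTGGGCCACG

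Neither *Calr3* window holds an ERSE, an ERSE-II or the half-site CCACG on its own, which is in 32.8% of all windows and in those of the other 8 genes. The UPRE core TGACGTG, a motif of XBP1 and ATF6 that is in 2.01% of windows, was found in *Hspa5* only among the 9. The core of the antioxidant response element that NRF2 binds, searched as TGACNNNGC, is in 12.4% of all windows. It was found in *Calr*, *Sdf2l1* and *Herpud1*, and in *Calr3* at the downstream start but not at the upstream one. The longer form TGACTCAGC (0.454% of windows), which contains that core, was in none of the 9. The ERSE contains the CCAAT box (37.4% of windows) and the half-site, and the motifs were counted separately. A match is a stretch of letters and no measured binding site, and a window without one says nothing about the factor.

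**Figure D1:**
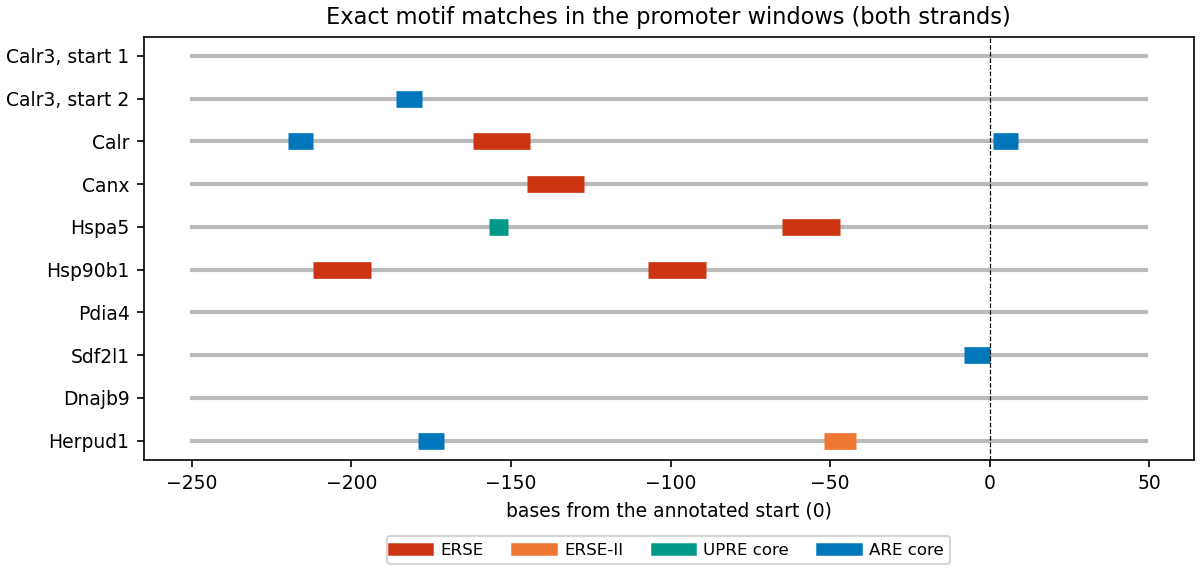
Exact matches of 4 motifs in the promoter windows of the 9 genes, with *Calr3* at both starts. The x axis gives bases from the annotated start (0), each grey line is a window and coloured blocks are matches on either strand. ERSE or ERSE-II blocks lie in 5 of the 9 genes and in neither *Calr3* window.

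*Calr3* was close to silent with buffer and well measured with iron. It had 52, 71, 79 and 74 reads in citrate buffer replicates 1 to 4, which is 4.95, 5.93, 7.04 and 9.81 CPM. In iron citrate replicates 1 to 4 it had 700, 621, 751 and 733 reads, which is 68.4, 71.5, 78.9 and 67.3 CPM. The lowest iron citrate library lay well above the highest buffer library, and the 4 iron citrate values lay close together. The group means were 6.93 ± 2.10 and 71.6 ± 5.21 CPM (SD, n = 4 each), a ratio of 10.3, and the fitted log2 fold change was 3.38 (SE 0.21). This was the value that put *Calr3* among the members. It ranked at position 7 from the top among the 14601 tested genes by log2 fold change. Over 17 alternative fits the log2 fold change ran from 3.10 to 3.58.

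*Calr3* was the 1 member of 9 past the threshold of the edgeR fit, an adjusted p under 0.05 over all tested genes, where 0.555% of the 14601 were called in either direction, 0.527% as higher and 0.0274% as lower. Nothing is read from that count, since the rule used this contrast.

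*Calr*, the calcium-binding lectin chaperone of nearly all cells, had no such gap between the groups. It stood at 90.0, 110.6, 111.9 and 87.3 CPM in citrate buffer replicates 1 to 4 and at 65.9, 111.5, 77.7 and 76.7 CPM in iron citrate replicates 1 to 4. The groups overlapped through iron citrate replicate 2, which was as high as the highest buffer libraries, while the other 3 iron citrate libraries lay below all of the buffer group. The means were 99.98 ± 13.1 and 83.0 ± 19.8 CPM, with a log2 fold change of -0.27 (SE 0.18).

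*Canx*, the membrane-bound lectin chaperone, stood at 398.7, 368.4, 549.8 and 486.5 CPM with buffer and at 561.2, 573.4, 607.6 and 565.8 CPM with iron. All 4 iron citrate libraries lay above all 4 buffer libraries, though citrate buffer replicate 3 came close. Among all tested genes, 6.36% had groups apart in this direction. The log2 fold change was 0.36 (SE 0.15), and 0.15 (SE 0.14) without citrate buffer replicates 1 and 2, the 2 lowest libraries for *Canx*.

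Set against each other within a library, the paralogues give a measure that does not depend on library scaling or, in its change, on amplicon efficiency. There were 5.50, 5.36, 6.28 and 11.2 *Calr3* reads per 100 *Calr* reads in citrate buffer replicates 1 to 4. After iron there were 104, 64.2, 101 and 87.8. The *Calr3* amplicon thus yielded as many reads as that of *Calr* in 2 of the 4 iron citrate libraries, iron citrate replicates 1 and 3. Per 100 *Canx* reads, *Calr3* gave between 1.24 and 2.02 with buffer and between 11.9 and 13.0 with iron, a narrower span because *Canx* itself varied less among the iron citrate libraries. *Calr* per 100 *Canx* reads was 18 to 30.0 with buffer and 11.7 to 19.4 with iron, so the groups overlapped.

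Reads of one paralogue assigned to the other could blur such a comparison. The GENCODE M21 transcripts of the *Calr3* and *Calr* targets share no identical run longer than 21 bases, and those of *Calr3* and *Canx* none longer than 15. Where in the transcript each amplicon lies is not stated in the labels, so reads from the 2 *Calr3* starts cannot be told apart. A further pair of lectin chaperones of this family, outside the rule for named genes, was also measured. *Calr4*, a further calreticulin paralogue of the mouse, had no reads in 6 of the 8 libraries and at most 0.11 CPM in any. *Clgn*, the testis relative of calnexin, stood at 10.2 ± 7.56 CPM with buffer and 5.55 ± 1.27 CPM with iron (log2 fold change -0.88, SE 0.48, edgeR adjusted p = 0.346), with its highest value, 21.2 CPM, in citrate buffer replicate 1. Without that library the buffer mean of *Clgn* was 6.49 ± 2.04 CPM (SD, n = 3) and the log2 fold change -0.24 (SE 0.32, edgeR adjusted p = 0.759).

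**Figure D2:**
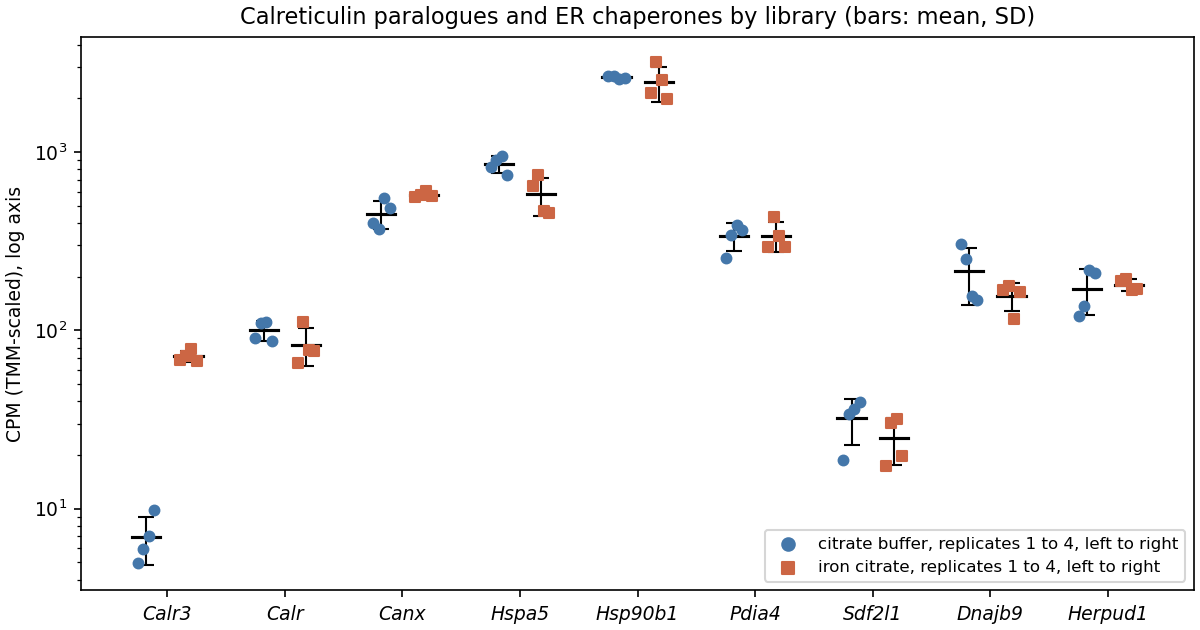
CPM of the 9 genes in each library on a log axis, with citrate buffer as circles and iron citrate as squares, replicates 1 to 4 from left to right in each cluster. Horizontal bars are means and whiskers SD (n = 4). *Calr3* moves from 6.93 CPM with buffer to 71.6 CPM with iron, beside *Calr*, while the ratio of group means, iron citrate over buffer, is between 0.678 and 1.28 in the other 8 genes.

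The 2 large folding chaperones were far more abundant by reads. *Hspa5*, which encodes BiP, the chaperone that also holds the stress sensors inactive, stood at 819.0, 899.5, 951.2 and 741.5 CPM with buffer and at 645.1, 743.1, 468.3 and 455.0 CPM with iron. The groups touched at a single point, where iron citrate replicate 2 matched the lowest buffer library, and the other 3 iron citrate libraries lay below. The means were 852.8 ± 92.0 and 577.9 ± 140.1 CPM, and the log2 fold change of -0.56 (SE 0.19) stayed between -0.70 and -0.46 in the 17 alternatives.

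*Hsp90b1*, which encodes GRP94, the HSP90 of the endoplasmic reticulum, stood at 2676, 2679, 2557 and 2593 CPM with buffer and at 2137, 3198, 2521 and 1970 CPM with iron. The buffer libraries were almost equal, and the iron citrate libraries spread to both sides of them. The log2 fold change was -0.10 (SE 0.17).

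The cofactors showed no separation of the groups either. *Pdia4*, a protein disulphide isomerase, ran from 254.3 to 388.4 CPM with buffer and from 292.1 to 429.3 CPM with iron, with means of 338.3 and 338.8 CPM and a log2 fold change of 0.002 (SE 0.18). Its lowest buffer value was in citrate buffer replicate 1, and without that library the log2 fold change was -0.11 (SE 0.15). *Sdf2l1*, a small partner of BiP, stood at 18.8, 33.7, 36.3 and 39.6 CPM with buffer and at 17.4, 30.3, 31.8 and 19.7 CPM with iron (log2 fold change -0.37, SE 0.28). Its low value in citrate buffer replicate 1 fell among the low iron citrate values, and without that library the log2 fold change was -0.56 (SE 0.20).

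*Dnajb9*, a J-domain cofactor of BiP that also restrains IRE1, stood at 303.2, 251.4, 156.2 and 148.3 CPM with buffer and at 168.9, 177.3, 116.1 and 163.8 CPM with iron. Citrate buffer replicates 1 and 2 alone lay above the iron citrate range. The log2 fold change was -0.46 (SE 0.25) in 8 libraries, -0.25 (SE 0.19) without citrate buffer replicate 1 and 0.04 (SE 0.16) without both. *Herpud1*, a membrane protein that helps hand misfolded proteins to the proteasome, showed the opposite order, with 120.0 and 136.5 CPM in those 2 buffer libraries, 217.2 and 209.6 CPM in the other 2, and 167.7 to 195.1 CPM with iron. Its log2 fold change was 0.08 (SE 0.20), turned to -0.06 (SE 0.15) without citrate buffer replicate 1, and was -0.24 (SE 0.13) without both.

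**Figure D3:**
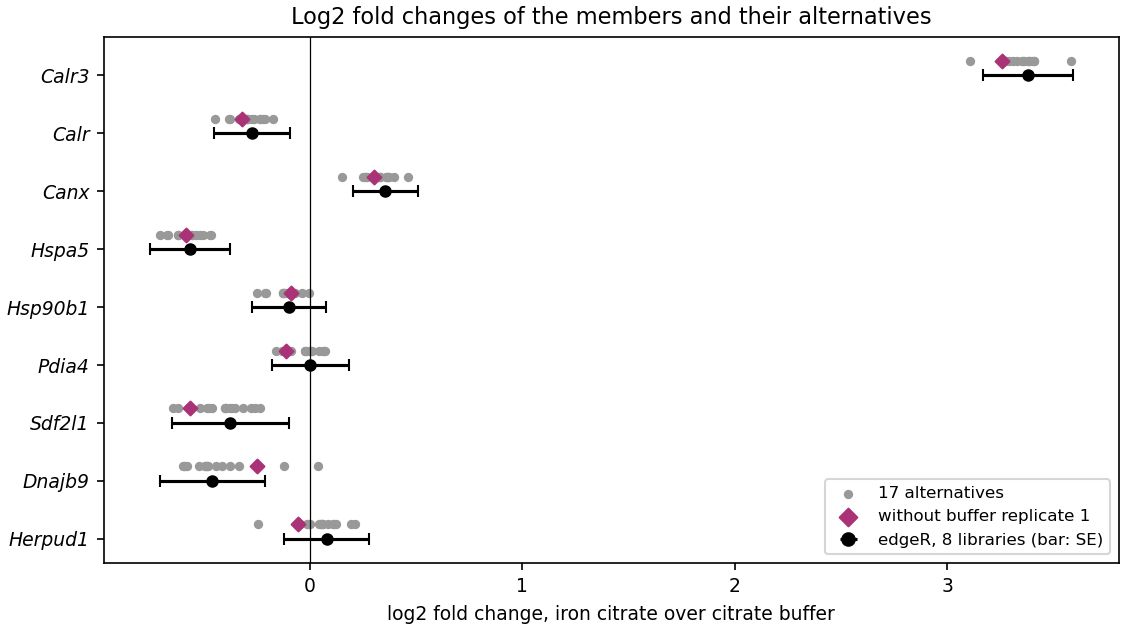
Log2 fold change of each gene, iron citrate over citrate buffer, from the edgeR fit of 8 libraries (black, bar: SE), with 17 alternative fits as grey points and the fit without citrate buffer replicate 1 as a purple diamond. *Calr3* lies between 3.10 and 3.58 in the alternatives, and the other 8 genes lie between -0.70 and 0.46.

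The order of the levels with buffer, by reads per amplicon, was *Hsp90b1*, *Hspa5*, *Canx*, *Pdia4*, *Dnajb9*, *Herpud1*, *Calr*, *Sdf2l1* and *Calr3*. The ranges of *Canx* and *Pdia4*, of *Pdia4* and *Dnajb9* and of *Dnajb9* and *Herpud1* overlapped between neighbours, and the other neighbours did not overlap. After iron the order was *Hsp90b1*, *Hspa5*, *Canx*, *Pdia4*, *Herpud1*, *Dnajb9*, *Calr*, *Calr3* and *Sdf2l1*. There *Hspa5* and *Canx*, *Herpud1* and *Dnajb9*, and *Calr* and *Calr3* overlapped between neighbours.

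Which library of a group was highest was counted for the 8 genes other than *Calr3*, a count chosen after the values were seen. Iron citrate replicate 2 held the highest value of its group in 6 of the 8, *Calr*, *Hspa5*, *Hsp90b1*, *Pdia4*, *Dnajb9* and *Herpud1*, and the lowest in none. It was the highest of its group in 22% of all tested genes. *Canx*, *Sdf2l1* and *Calr3* had their highest value in iron citrate replicate 3. In the buffer group citrate buffer replicate 3 was the highest library in 5 of the 8 genes, against 21.0% of all tested genes. The 8 genes are known to answer to shared sensors, so they are not independent of each other.

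Likeness to *Calr3* was measured as the root-mean-square difference between log2 CPM profiles over the 8 libraries, each centred on its own mean, among genes with a mean of at least 5 CPM. The 8 nearest genes were *Gclm* (0.21), *Aox1* (0.25), *Blvrb* (0.32), *Txnrd1* (0.34), *Slc40a1* (0.35), *Mt1* (0.41), *Osgin1* (0.44) and *Akr1b8* (0.46). No chaperone was among them, and *Canx*, the nearest of the 8 other members, stood at 1.51. By this measure only genes with a similar fold change can lie near *Calr3*. The distance of the other members therefore follows from the fold change for which *Calr3* was chosen, and nothing is read from it. *Gclm*, the modifier subunit of glutamate-cysteine ligase, had 45.8, 55.3, 63.0 and 78.0 CPM with buffer and 772.9, 802.6, 804.1 and 821.4 CPM with iron. Like *Calr3*, it was lowest in citrate buffer replicate 1 and highest of its group in citrate buffer replicate 4. Of all tested genes, 41.8% had their lowest buffer value in the former and 28.5% their highest in the latter. The aldehyde oxidase *Aox1* (2.86, 4.84, 5.61 and 7.16 CPM with buffer, 34.7 to 45.9 CPM with iron) and *Blvrb*, a reductase of haem breakdown products (52.3, 74.7, 76.4 and 105.2 CPM with buffer, 462.6 to 578.2 CPM with iron), had the same lowest and highest buffer libraries. *Slc40a1* and *Mt1* shared these libraries too, while *Txnrd1*, *Akr1b8* and *Osgin1* did not. *Txnrd1* was highest in citrate buffer replicate 1 (36.0 CPM) and lowest in citrate buffer replicate 4 (28.2 CPM). *Akr1b8* was also highest in citrate buffer replicate 1 (572.8 CPM). The 8 nearest genes were picked for being alike, so their likeness is no separate result.

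Likeness to *Hspa5*, measured the same way, was 0.26 for *Calr*, 0.31 for *Hsp90b1*, 0.37 for *Dnajb9*, 0.38 for *Pdia4*, 0.47 for *Sdf2l1*, 0.48 for *Herpud1* and 0.56 for *Canx*. The median over all tested genes was 0.56. By rank among all tested genes, *Calr* was at 72, *Sdf2l1* at 4021, *Herpud1* at 4485 and *Canx* at 7309. The measure includes the difference between the groups, so nothing is read from these values. *Calr3* is left out here, since its distance follows from the fold change for which it was chosen.

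**Figure D4:**
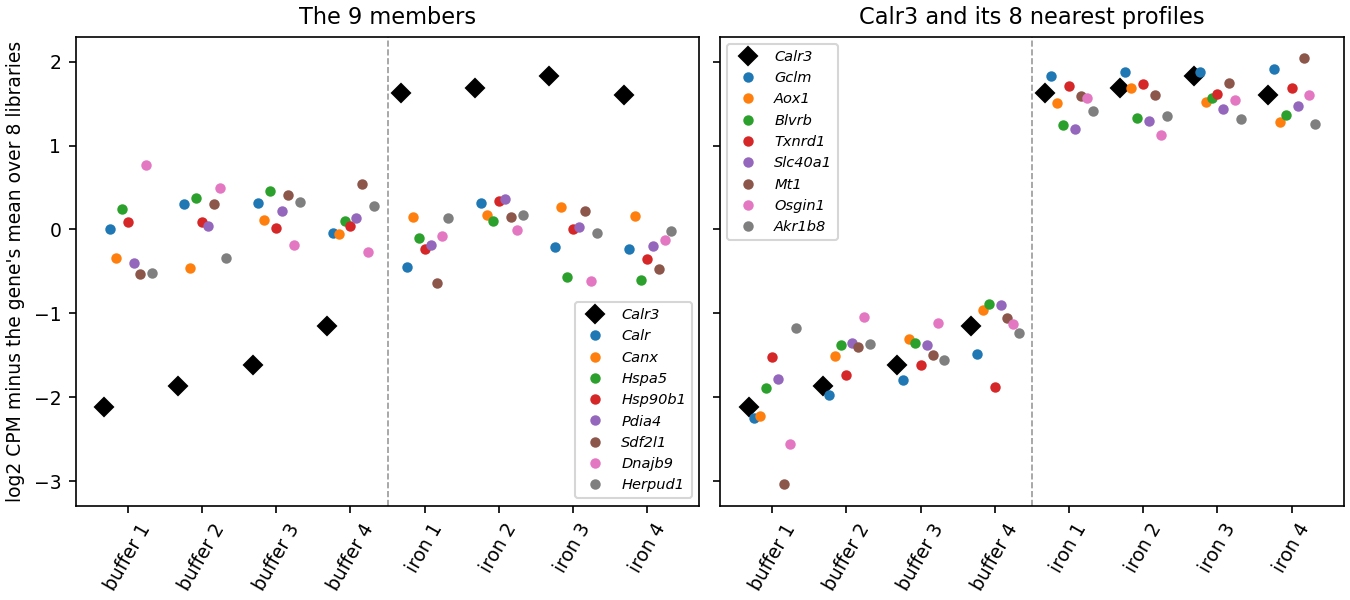
Log2 CPM minus the gene's own mean over 8 libraries, for the 9 genes (left) and for *Calr3* with its 8 nearest profiles (right). Each point is a library, black diamonds are *Calr3*, and the dashed line parts citrate buffer from iron citrate. The other 8 members stay within 0.77 log2 units of their mean, while the 8 nearest profiles lie at or below -0.89 with buffer and at or above 1.12 with iron.

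The other genes of the pathway showed no called change. The 6 lists held 122 further genes of endoplasmic reticulum folding, of which 113 were measured and 105 tested. None of the 105 was called by edgeR in either direction, against 0.555% of all tested genes. A gene that was not called is not shown to be unchanged. At an unadjusted edgeR p under 0.05, 7 were higher and 2 lower, where 6.57% of all tested genes were higher and 8% lower. DESeq2 and limma-voom called 0 as well, against 2.5% and 1.98% of all tested genes. The median log2 fold change was 0.09, beside -0.01 over all tested genes. It was -0.01 without citrate buffer replicate 1 and -0.07 without citrate buffer replicates 1 and 2. In the latter fit, where 0.546% of 14828 tested genes were called lower, 2 of the 105 were so called, *Txndc5*, a disulphide isomerase (log2 fold change -0.62, edgeR adjusted p = 0.0185), and *Rcn3*, a calcium-binding protein of the endoplasmic reticulum lumen (-0.66, adjusted p = 0.0115).

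The lectin cycle had no called gene of 20 tested (median log2 fold change 0.04). With 0.555% of all tested genes called by edgeR, nothing is read from the lack of calls in this or the other single lists. *Pdia3*, the disulphide isomerase that works on the clients of calreticulin and calnexin, stood at 984.5 ± 106 CPM with buffer and 987.8 ± 171.2 CPM with iron (edgeR adjusted p = 0.99). *Rpn1*, a subunit of the oligosaccharyltransferase, stood at 428.4 ± 127.1 and 408.1 ± 71.9 CPM (adjusted p = 0.89). None of 16 partners of BiP and GRP94 was called (median -0.001). Of the 16, 3 had an unadjusted edgeR p under 0.05, with *Sec62* higher and the secreted stress factors *Manf* and *Creld2* lower. Among all tested genes 6.57% were higher and 8% lower at this threshold, so nothing is read from that count. *Sec62*, a subunit of the post-translational import machinery, stood at 92.8 ± 7.53 and 114.9 ± 7.67 CPM, a log2 fold change of 0.31 (edgeR adjusted p = 0.333). Its groups lay apart, as in 6.36% of all tested genes with iron higher. *Manf* stood at 281.9 ± 64.7 and 202.4 ± 22.1 CPM, a log2 fold change of -0.48 (edgeR adjusted p = 0.333). *Creld2* stood at 80.5 ± 8.32 and 57.4 ± 9.98 CPM, a log2 fold change of -0.49 (edgeR adjusted p = 0.322). Both are known targets of the unfolded protein response, as *Hspa5* is, but the list as a whole did not go their way. On it *Hyou1*, *Dnajc3* and *Dnajb11* had log2 fold changes of 0.06, -0.03 and -0.06, and 8 of the 16 genes were positive. The groups of *Creld2* did not overlap. Across all tested genes, 2.29% had groups apart with iron lower, as *Creld2* had. *Creld2*, *Sec62*, *Hyou1*, *Dnajc3* and *Dnajb11* are outside the rule for named genes and were picked after their values were seen.

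Oxidative folding had no called gene of 14 (median -0.01), with *P4hb*, the main disulphide isomerase, at 271.6 ± 65.4 and 290.3 ± 30.2 CPM. Degradation of misfolded proteins had none of 21, with a median of 0.18 and *Aup1*, a lipid droplet protein of this route, at 316.9 ± 81.0 and 332.7 ± 38.8 CPM. The sensors and factors of the unfolded protein response had none of 18, with a median of 0.20. *Atf4* stood at 326.0 ± 65.7 and 349.0 ± 70.8 CPM (edgeR adjusted p = 0.806). *Atf6*, the sensor that acts on the ERSE, was at 100.8 ± 11.8 and 128.9 ± 2.75 CPM with groups apart, as in 6.36% of all tested genes (log2 fold change 0.36, adjusted p = 0.333), while *Xbp1* was at 151.2 ± 20.4 and 126.2 ± 11.9 CPM (-0.26, adjusted p = 0.336) and *Ddit3*, which encodes the death factor CHOP, at 25.5 ± 3.76 and 25.6 ± 3.23 CPM (0.01, adjusted p = 0.989). These 3 were picked after their values were seen. The splicing of *Xbp1* and the cleavage of ATF6, which carry the response, are not measured by these amplicons. Calcium stores had none of 16 called (median 0.07). Without citrate buffer replicate 1, where edgeR called 259 genes over all targets, none of the 6 lists had a called gene either. The median was then 0.05 for degradation, -0.01 for the unfolded protein response, -0.04 for the lectin cycle, -0.08 for the partners of BiP and GRP94, -0.01 for oxidative folding and 0.01 for calcium stores.

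**Figure D5:**
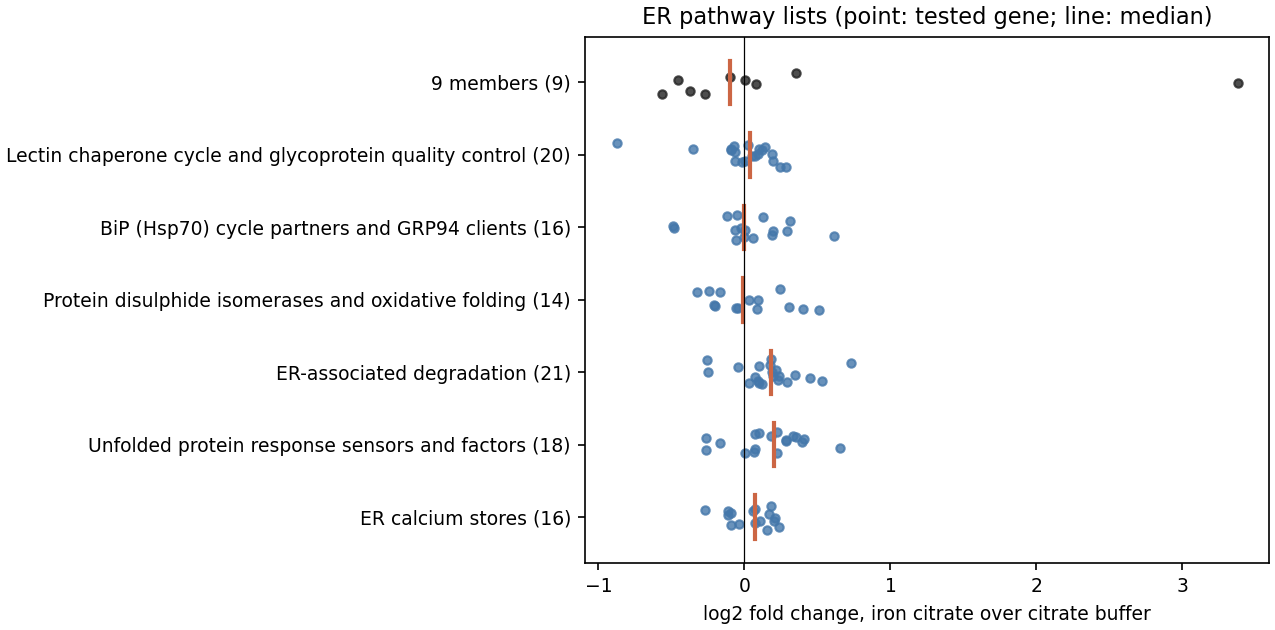
Log2 fold changes, iron citrate over citrate buffer, of the 9 members and of the tested genes in 6 lists of endoplasmic reticulum folding, with the number of genes in brackets. Each point is a gene and each vertical line a median. The list medians lie between -0.01 and 0.20, and *Calr3* at 3.38 lies apart from every gene of the 6 lists, the highest of which is at 0.73.

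Since CALR3 is known from testis, 24 measured testis and sperm genes were read beside it. Of these 9 passed the filter, none was called by edgeR, and at an unadjusted p under 0.05 none was higher and 2 were lower, beside 6.57% and 8% of all tested genes. DESeq2 and limma-voom called 0 as well. Over all tested genes edgeR called 0.555%, DESeq2 2.5% and limma-voom 1.98%. All 9 tested testis genes had a negative log2 fold change, with a median of -0.89. Without citrate buffer replicate 1 the median was -0.42, all 9 were again negative and 0 were called. In that fit edgeR called 259 genes over all targets, and 7985 tested genes were negative and 6716 positive. The summed level of the list was 238.6, 131.4, 74.6 and 64.0 CPM in citrate buffer replicates 1 to 4 and 49.8 to 81.0 CPM with iron. It was highest in the library in which *Calr3* was lowest, citrate buffer replicate 1. The buffer libraries had the same order in their share of counts on the receptors and hair proteins foreign to liver. That share was 2.42%, 0.98%, 0.46% and 0.42% in citrate buffer replicates 1 to 4. The fit without citrate buffer replicate 1 keeps citrate buffer replicate 2, the next highest on both measures. Whether the negative values of the list come from this was not tested. *Adam3*, whose protein product CALR3 is known to serve, had at most 0.21 CPM in any library. *Pdilt*, the testis disulphide isomerase that pairs with it, was at 0 reads in all 8, which allows up to 3 reads per library.

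The neighbours of *Calr3* on the chromosome were read too. In the RefSeq gene table (GRCm38.p6) the gene on the other strand next to it is *1700030K09Rik*, and 201 of the 300 bases of the *Calr3* promoter window belong to the window of that gene too. *1700030K09Rik* stood at 3.62, 3.42, 7.66 and 5.57 CPM with buffer and at 6.26, 4.61, 6.83 and 8.73 CPM with iron (log2 fold change 0.38, SE 0.37, edgeR adjusted p = 0.582), so the groups overlapped. The next gene on that side, *Cherp*, stood at 98.9 ± 18.1 and 104.9 ± 10.4 CPM (adjusted p = 0.79). On the other side *Eps15l1*, at 170.9 ± 4.56 and 212.8 ± 35.6 CPM, had a log2 fold change of 0.32 (adjusted p = 0.333). Its groups did not overlap, as in 6.36% of all tested genes in this direction. The lncRNA gene *Gm46043*, which lies nearer, was not analysed here.

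Plasma cells are rich in the chaperones described here, so their markers were read in the same libraries. Over 11 measured markers of B and plasma cells the summed level was 74.9 to 281.3 CPM with buffer and 193.6 to 281.6 CPM with iron, with the lowest value in citrate buffer replicate 1. None of the 9 tested was called by edgeR, DESeq2 or limma-voom, against 0.555%, 2.5% and 1.98% of all tested genes. At an unadjusted edgeR p under 0.05, 0 were higher or lower, beside 6.57% and 8% of all tested genes. With so few genes and such shares, nothing is read from these counts. The plasma cell gene *Jchain* ran from 9.62 to 42.6 CPM with buffer and from 7.72 to 34.3 CPM with iron, and *Tnfrsf17* stayed below 1 CPM in all 8 libraries. Hepatocytes, which also secrete much protein, had a summed level over 8 markers of 472.0 to 851.1 CPM with buffer and 357.4 to 751.4 CPM with iron. Their part in the levels of the 9 genes was not tested.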

How the data were processed

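For each library the authors deposited raw counts of reads over 23930 RefSeq targets, from Ion AmpliSeq amplicon libraries per the labels' protocols. HTSeq 0.6.0 and DESeq2 1.18.1 are named in the submitters' processing notes. The aligner, the build and any filter are not stated there. HTSeq summary lines (2.15% to 4.60% of reads) were left out. Symbols came from RefSeq and GENCODE tables, and 1368 targets had no match.

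Groups were compared with edgeR 4.0.16 in R 4.3.3 (filterByExpr, 14601 targets kept, TMM, robust quasi-likelihood F-test, Benjamini-Hochberg adjusted p under 0.05 over all targets). Standard errors came from the F statistic. Fold ratios are of mean CPM. Alternatives were other scalings, DESeq2 1.42.0, limma-voom (limma 3.58.1), other low-count filters, a replicate block and omitted libraries. Log2 CPM for profiles used a prior count of 2. Members, lists and tests were chosen with earlier results of these data known. The rule for named genes took all members, called or else the 2 most abundant genes per list, the 8 nearest profiles and the 2 nearest genes on each side of *Calr3*. The edgeR step was tested on simulated counts. All 28 pairs of libraries differed by more than sampling noise (chi-square per degree of freedom at least 8.4). The labels name 1 mouse per library, so p-values reflect only the spread between these samples. The design text speaks of 5 against 5 samples, and the others were not analysed here. Reads carry no molecular identifiers.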

Additional observations from a re-analysis of the deposited data

Results flagged for a closer look

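Among 96 groups of 4 libraries, 2 for each named gene, 6 held a library far from the other 3, where chance flags about 1 in 20. None of the 6 was a member. In citrate buffer replicate 1, *Tmbim6*, an inhibitor of cell death in the endoplasmic reticulum membrane, was at 565 CPM against 1190 to 1320 CPM in the other 3 buffer libraries. The cytosolic HSP90 gene *Hsp90ab1* was at 2560 CPM there against 1730 to 1780 CPM, and *Gzma*, a granzyme of T and NK cells, at 1260 CPM against 265 to 384 CPM. *Osgin1*, among the nearest profiles to *Calr3*, was at 11.5 CPM there against 31.4 to 33.2 CPM, and at 150 CPM in iron citrate replicate 2 against 200 to 210 CPM. The hepatocyte gene *Alb* was at 479 CPM in iron citrate replicate 1 against 253 to 281 CPM.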

How the results depend on the processing

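Of 17 alternatives, the sign of the log2 fold change held in 17 for *Calr3*, *Calr*, *Canx*, *Hspa5*, *Hsp90b1* and *Sdf2l1*, in 16 for *Dnajb9*, in 12 for *Herpud1* and in 8 for *Pdia4*, whose value is near 0. *Calr3* was the only one of the 9 past the threshold in each of the 17, in which 43 to 365 genes were called over all targets. Nothing is read from this either, since the rule used this contrast. The number of genes called over all targets was 81, and it was 365 with DESeq2, 289 with limma-voom, 43 with the replicate block and 281 without both citrate buffer replicates 1 and 2. Leaving out 1 library gave 46 to 259 called genes, the highest without citrate buffer replicate 1 and the lowest without iron citrate replicate 1 or 2. The count of called pathway genes was 0 in 16 alternatives and 2, both lower, without both citrate buffer replicates 1 and 2. That fit used fewer libraries and called 0.546% of 14828 tested genes as lower. With 1 library left out the count of called pathway genes was 0 throughout. The deviations of same-numbered libraries correlated at 0.00, 0.18, 0.61 and -0.32. So few correlations, with no differently numbered pairs beside them, cannot settle whether the replicate numbers pair the libraries. The main fit used no pairing. With the replicate block the log2 fold changes of the 9 genes kept their sign. Depth limits *Calr3* with buffer most, where it rests on 52 to 79 reads per library.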

Other observations

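Chaperones outside the endoplasmic reticulum were measured beside the 9 genes. None of 11 tested genes of cytosolic and mitochondrial heat-shock proteins was called by edgeR, with 2 higher and 0 lower at an unadjusted p under 0.05, beside 6.57% and 8% of all tested genes. DESeq2 called 2, *Hspa9* and *Bag3*, beside 2.5% of all tested genes, and limma-voom called 0, beside 1.98%. The share called by edgeR over all tested genes was 0.555%. The median log2 fold change was 0.27, beside -0.01 over all tested genes. In 3 of the 11 all iron citrate libraries lay above all buffer libraries, *Hspa9*, *Bag3* and *Hspa1b*, against 6.36% of all tested genes. *Hspa9*, the mitochondrial HSP70, stood at 102.4, 92.4, 116.2 and 127.2 CPM with buffer and at 143.6, 146.4, 175.5 and 163.5 CPM with iron (log2 fold change 0.52, edgeR adjusted p = 0.214). *Hsp90ab1* stood at 1962 ± 402.1 and 2371 ± 235 CPM (0.27, adjusted p = 0.396). *Bag3* and *Hspa1b* were named after their values were seen.

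The 8 profiles nearest to *Hspa5* over the 8 libraries, looked up after its values were seen, were those of *Calml4*, *Creld2*, *3110082I17Rik*, *St3gal6*, *Washc3*, *Zfp563*, *Tnfrsf9* and *Mmab*, at root-mean-square differences of 0.10 to 0.20 (0.21 for *Mmab*) on the log2 scale. *Creld2* is the only gene of the 6 lists among them.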
